A study of Rattus norvegicus with 9 samples.

Results

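Spinal neuropeptides are small signalling molecules cut from precursor proteins, and the 10 genes described here encode 10 such precursors: Penk, Pdyn, Tac1, Sst, Npy, Nts, Grp, Cck, Gal and Calca. They were taken by gene symbol from a table of 32623 genes, and all 10 symbols were found once each. The RNA, in 9 libraries, was spinal cord RNA of Wistar rats, all female, 8 weeks old and 200 to 230 g in weight. In the 3 Sham libraries the lamina had been opened and the cord left uninjured, and the labels call these rats untreated without naming a gavage. In the 3 C_Spinal libraries the cord had been injured and distilled water was given into the stomach. In the 3 T_Spinal libraries the cord had been injured and 3 mL of Modified Erxian Decoction, a herbal mixture, was given by the same route each day. The labels name no injury method, cord level, time after injury or length of cord taken, and do not say whether the 3 libraries of a group were separate animals. A p-value here therefore rests on how far the libraries of a group spread, and that spread may be technical.

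Neurons store neuropeptides in dense-core vesicles and release them beside a fast transmitter. Prohormone convertases cut the precursor at basic residues, and further enzymes trim and amidate the fragments. The released peptide acts on G protein-coupled receptors, often at some distance, until peptidases degrade it. In the dorsal horn, where pain, itch and touch signals enter the cord, peptides mark families of interneurons. The opioid precursors Penk and Pdyn are classically inhibitory to pain, Tac1 (substance P) and Grp (itch) are excitatory, and Sst, Npy, Nts, Cck and Gal each label subsets of local neurons. Calca encodes calcitonin and, by alternative splicing, the peptide CGRP, which motor neurons and sensory ganglion neurons make. The counts are per gene and do not separate the calcitonin and CGRP transcripts.

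The start regions of 3 of these genes are shown because their RNA had the largest fall after injury (Sst), the smallest (Npy) and the level nearest to Sham with the decoction (Calca), a choice made after their values were seen. Each sequence runs from 250 bases before to 50 bases after the start of the gene in RefSeq, on build GRCr8, read 5′ to 3′ along the gene's strand. Such an entry was found for 8 of the 10 genes, all but Penk and Cck. Capitals mark the cAMP response element TGACGTCA in Sst and its half-site TGACG in Calca; the Npy window held none of the motifs searched.
Sst, chr11:90461296-90461595, + strand: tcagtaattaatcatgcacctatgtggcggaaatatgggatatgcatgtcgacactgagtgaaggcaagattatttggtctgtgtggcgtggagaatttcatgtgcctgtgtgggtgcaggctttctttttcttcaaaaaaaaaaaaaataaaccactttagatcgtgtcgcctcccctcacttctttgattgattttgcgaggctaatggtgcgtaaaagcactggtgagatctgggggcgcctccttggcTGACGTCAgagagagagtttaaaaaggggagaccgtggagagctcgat
Calca, chr1:178317480-178317779, − strand: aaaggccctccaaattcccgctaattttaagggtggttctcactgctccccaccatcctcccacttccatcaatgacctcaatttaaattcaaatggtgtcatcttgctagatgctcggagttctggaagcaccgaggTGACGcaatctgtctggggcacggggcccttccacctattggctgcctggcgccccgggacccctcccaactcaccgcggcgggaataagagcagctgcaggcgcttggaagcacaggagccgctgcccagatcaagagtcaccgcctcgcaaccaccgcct
Npy, chr4:80211861-80212160, + strand: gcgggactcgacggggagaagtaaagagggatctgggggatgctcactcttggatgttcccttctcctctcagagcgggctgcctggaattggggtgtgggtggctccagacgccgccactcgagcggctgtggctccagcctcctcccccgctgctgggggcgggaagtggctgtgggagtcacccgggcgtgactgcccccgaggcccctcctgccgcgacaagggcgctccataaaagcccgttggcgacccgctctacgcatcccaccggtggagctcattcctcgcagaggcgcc

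The full response element lay at bases 253 to 260 of the Sst window, which is past the RefSeq start of the gene. It was in no other of the 8 windows, against 1.83% of the 33469 windows of the same length in the RefSeq table. The half-site, which the full element contains, was found on either strand in 6 of the 8 (Tac1, Sst, Nts, Grp, Gal and Calca), against 21.2% of all windows. In the Calca window it lay at bases 139 to 143. The TATA box TATAAA, searched on both strands, was found in Pdyn, Grp and Gal, against 14.2% of all windows. A match describes the letters of this window and not a bound site.

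Library depth was 57.0 to 69.8 M counts (M stands for 1e+06). In the deposited table, whose genome build is not given in the sources used here, Sst lies at chromosome 11, 80358211 to 80359444 on the + strand, Penk at chromosome 5, 17056419 to 17061837 on the − strand, Npy at chromosome 4, 79573998 to 79581208 on the + strand and Calca at chromosome 1, 184184020 to 184188911 on the − strand. Those positions cannot be set beside the GRCr8 positions above. Levels are given as FPKM, which divides the fragments of a gene by its transcript length and by library depth, so that genes of different length can be compared. Genes with a mean of at least 1 FPKM over the 9 libraries were tested, which kept 14791 genes and 9 of the 10 precursors. Grp, at a mean under that minimum, is described by its level.

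In uninjured cord the precursors fell into separate steps of abundance. Sst was highest at 101.4 ± 4.75 FPKM (SD, n = 3), followed by Penk at 63.8 ± 1.94, with no overlap between them. Gal (25.6 ± 1.998), Calca (22.4 ± 1.51), Npy (22.0 ± 3.32), Tac1 (20.2 ± 0.719) and Cck (20.1 ± 0.731) formed the next step, in which each overlapped its neighbour in the order. Nts at 8.83 ± 0.694 and Pdyn at 8.54 ± 0.488 overlapped each other and lay below that step, and Grp was lowest at 1.56 ± 0.235.

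**Figure D1:**
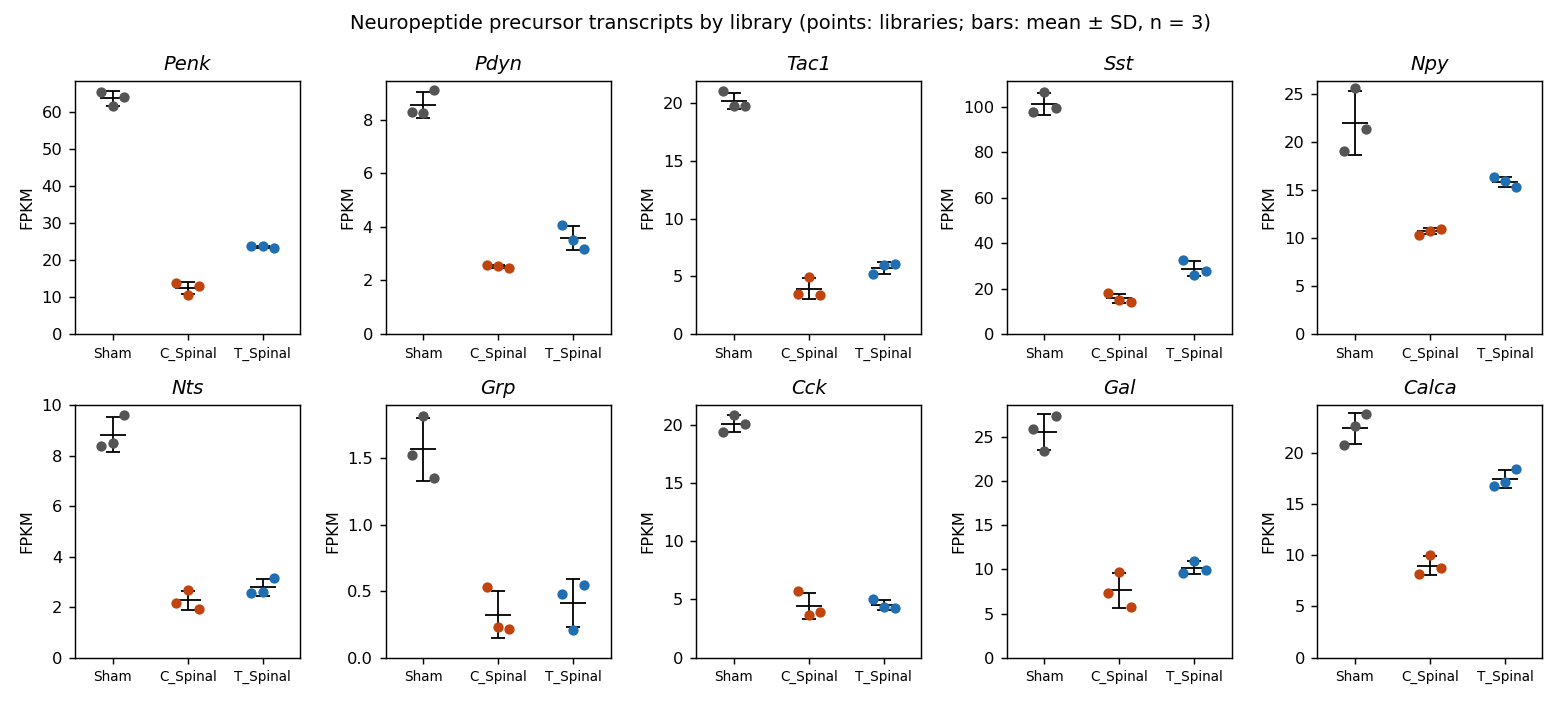
FPKM of each of the 10 precursor genes (vertical axes, each from 0) in the 3 Sham, 3 C_Spinal and 3 T_Spinal libraries; points are libraries and bars are mean ± SD. Every Sham point lies above every C_Spinal point, and in Penk, Pdyn, Tac1, Sst, Npy and Calca every T_Spinal point lies between the Sham and C_Spinal points.

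Injured cord of rats given water was first set against uninjured cord. All 9 tested precursors were lower after injury, by 2.24-fold for Npy to 7.02-fold for Sst, and Grp was lower in every library as well. Their summed level was 294.4 ± 6.14 FPKM in Sham and 68.9 ± 3.83 in C_Spinal, or 23.4% of the Sham sum. Over all 14791 tested genes edgeR called 75.4%, with 38.1% higher and 37.4% lower, so a fall alone was common in this comparison. The precursors' groups did not overlap, which held for 33.9% of all genes in that direction and 45.6% in the other. The median log2 fold change was -2.08 over the 9 precursors and 0.02 over all tested genes. Sst had a log2 fold change lower than all but 3.21% of tested genes, and Npy lower than all but 13.5%. In whole cord, fewer cells of a type and less RNA per cell cannot be told apart.

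The opioid precursors came first by role. Penk, which carries several copies of enkephalin, read 65.5, 61.6 and 64.1 FPKM in the Sham libraries, 13.7, 10.5 and 13.1 in C_Spinal and 23.9, 23.7 and 23.4 in T_Spinal. The groups did not overlap, and the T_Spinal libraries lay between the others. Penk fell after injury by 2.48 on the log2 scale (SE 0.0884, adjusted p = 1.57e-09 by edgeR's quasi-likelihood test). Pdyn, the dynorphin precursor, read 8.28, 8.24 and 9.11 in Sham, 2.58, 2.53 and 2.47 in C_Spinal and 4.08, 3.50 and 3.18 in T_Spinal, also without overlap. It fell by 1.88 (SE 0.106, adjusted p = 5.73e-08).

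Of the excitatory peptides, Tac1 read 21.0, 19.8 and 19.8 FPKM in Sham, 3.45, 4.96 and 3.33 in C_Spinal and 5.16, 5.94 and 6.08 in T_Spinal. C_Spinal replicate 2 was close to the lowest T_Spinal library, and the groups did not overlap. Tac1 fell after injury by 2.48 (SE 0.153, adjusted p = 1.15e-07). Grp, the itch peptide, had 141, 168 and 102 counts in Sham, 42, 19 and 19 in C_Spinal and 39, 19 and 50 in T_Spinal. Its level in C_Spinal was 20.7% ± 11.3 of the Sham mean, and in the fit with no expression minimum it fell by 2.36 (SE 0.468, adjusted p = 0.00113 by edgeR). At these counts a difference between the injured groups was not detectable (log2 fold change 0.28, SE 0.460, adjusted p = 0.737 in that fit). Cck, a peptide of excitatory dorsal horn neurons, read 19.4, 20.8 and 20.1 FPKM in Sham, 5.72, 3.68 and 3.92 in C_Spinal and 5.01, 4.35 and 4.24 in T_Spinal. The injured groups overlapped, and Cck fell after injury by 2.30 (SE 0.167, adjusted p = 4.35e-07).

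Sst, which labels a subset of local neurons, had the largest fall of the 9 tested precursors. It read 97.7, 106.8 and 99.7 FPKM in Sham, 17.9, 15.1 and 14.2 in C_Spinal and 32.6, 26.0 and 27.8 in T_Spinal. The 3 groups were apart, and Sst fell after injury by 2.81 (SE 0.112, adjusted p = 3.58e-09). Npy, which acts through receptors that dampen dorsal horn excitation, read 19.1, 25.6 and 21.4 in Sham, 10.4, 10.7 and 11.0 in C_Spinal and 16.3, 16.0 and 15.3 in T_Spinal. It kept 48.6% ± 1.44 of the Sham mean in C_Spinal, the largest share of the 10 genes, and fell by 1.16 on the log2 scale (SE 0.117, adjusted p = 6.35e-06).

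Nts (neurotensin) read 8.36, 8.50 and 9.63 FPKM in Sham, 2.17, 2.68 and 1.94 in C_Spinal and 2.57, 2.60 and 3.17 in T_Spinal. C_Spinal replicate 2 lay within the T_Spinal range, so the injured groups overlapped. Nts fell by 2.08 after injury (SE 0.154, adjusted p = 5.19e-07). Gal (galanin) read 25.9, 23.5 and 27.4 in Sham, 7.36, 9.76 and 5.76 in C_Spinal and 9.64, 11.0 and 9.94 in T_Spinal. Its C_Spinal libraries were widely spread and replicate 2 reached into the T_Spinal range. Gal fell by 1.87 after injury (SE 0.170, adjusted p = 2.75e-06).

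Calca read 20.8, 22.6 and 23.8 FPKM in Sham, 8.18, 9.9995 and 8.74 in C_Spinal and 16.8, 17.2 and 18.4 in T_Spinal. The 3 groups were apart, with the T_Spinal libraries closer to Sham than to C_Spinal. Calca fell after injury by 1.44 (SE 0.0872, adjusted p = 1.00e-07). Calcb, a close paralog that encodes a second CGRP, fell by 0.58 (adjusted p = 0.0181), and reads shared by the 2 genes could have been assigned to either. Unlike Calca, Calcb had a lower mean in T_Spinal (2.53, 3.51 and 3.73 FPKM) than in C_Spinal (4.80, 4.61 and 3.66), though these groups overlapped.

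Among the injured rats, those given the decoction were then set against those given water. Of the 9 tested precursors 6 were higher with the decoction and none was lower by edgeR, against 38.6% of all tested genes called, 20.7% higher and 17.9% lower. The 6 were Calca, Penk, Sst, Npy, Tac1 and Pdyn, and their groups did not overlap, as was the case for 30.3% of all genes in that direction and 21.7% in the other. At an unadjusted p below 0.05 no precursor was lower either, and DESeq2 called none lower. The summed level rose from 68.9 to 113.0 ± 3.14 FPKM, or 38.4% of the Sham sum. The median log2 fold change was 0.51 over the 9 precursors and -0.00 over all tested genes. C_Spinal is the control here and the treated group in the injury comparison, so the 2 sets of fold changes share those libraries.

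The rises were largest in Calca, Penk and Sst. Calca rose by 0.92 on the log2 scale (SE 0.0864, adjusted p = 2.61e-05), or 1.90-fold. Penk rose by 0.89 (SE 0.0853, adjusted p = 3.11e-05) and Sst by 0.84 (SE 0.107, adjusted p = 2.00e-04). Npy rose by 0.53 (SE 0.117, adjusted p = 0.00537) and Pdyn by 0.47 (SE 0.104, adjusted p = 0.00550). Each of these 5 calls held under all 18 alternatives.

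Tac1 rose by 0.51 (SE 0.148, adjusted p = 0.0209), and this call rested on single libraries. It was lost without C_Spinal replicate 1 (0.43, adjusted p = 0.0710), C_Spinal replicate 3 (0.41, adjusted p = 0.0710), T_Spinal replicate 2 (0.48, adjusted p = 0.0591) or T_Spinal replicate 3 (0.47, adjusted p = 0.0613), and in the fit of the 6 injured libraries alone (0.51, adjusted p = 0.0514). Over all alternatives its adjusted p ran from 0.000869 to 0.0710.

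The other 3 tested precursors were not called. Gal had a log2 fold change of 0.38 (95% interval 0.01 to 0.76, adjusted p = 0.0980), and without C_Spinal replicate 2 it was called at 0.60 (adjusted p = 0.00787). Without C_Spinal replicate 3 it stood at 0.215 (adjusted p = 0.264). DESeq2 also called Gal higher, at 0.41 (adjusted p = 0.0244). Nts had 0.26 (interval -0.08 to 0.60, adjusted p = 0.203). Cck had -0.01 (interval -0.37 to 0.36, adjusted p = 0.985), and its sign changed under other scalings. Without C_Spinal replicate 1, the highest of its group, Cck stood at 0.22 (adjusted p = 0.174). The intervals reach 1.28-fold higher for Cck, 1.51-fold for Nts and 1.69-fold for Gal.

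In T_Spinal against Sham all 9 tested precursors were lower, where edgeR called 71.5% of all tested genes, 35% higher and 36.6% lower. Of those calls 48.9% were higher, or 59.6% with total-count scaling. Their groups did not overlap, as for 30.7% of genes in that direction and 45% in the other. Calca was closest to Sham at 77.9% ± 3.85 of the Sham mean, which is -0.52 on the log2 scale (SE 0.0852, adjusted p = 2.95e-04), followed by Npy at 72.1% ± 2.39 and -0.63 (SE 0.116, adjusted p = 6.41e-04). Cck was farthest, at 22.6% ± 2.08 and -2.30 (SE 0.167, adjusted p = 5.12e-07). Pdyn stood at 42.0% ± 5.34 of Sham, Gal at 39.8% ± 2.79 and Penk at 37.1% ± 0.401. Nts, Sst and Tac1 stood at 31.5% ± 3.85, 28.4% ± 3.37 and 28.4% ± 2.45.

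**Figure D2:**
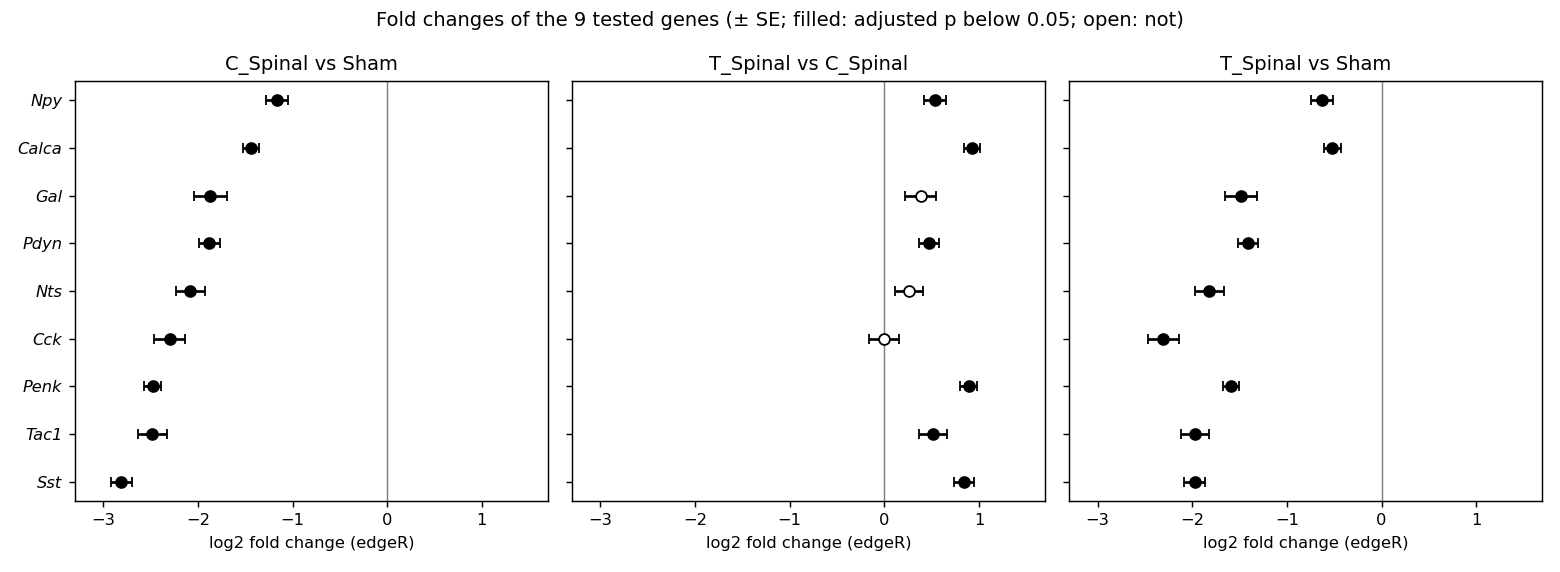
Log2 fold change with its standard error (horizontal axes) of the 9 tested precursor genes in the 3 comparisons, filled where the adjusted p was below 0.05. All 9 lie left of 0 against Sham in both injured groups, and Calca, Penk and Sst lie farthest right in T_Spinal against C_Spinal while Cck lies at -0.01.

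The order of the levels differed between the groups. In C_Spinal, Sst (15.7 ± 1.94 FPKM) was followed by Penk (12.4 ± 1.72), which overlapped Npy (10.7 ± 0.318). Calca (8.97 ± 0.934) and Gal (7.63 ± 2.01) overlapped, as did Cck (4.44 ± 1.11) and Tac1 (3.91 ± 0.908), and Pdyn (2.53 ± 0.0549) and Nts (2.26 ± 0.380). In T_Spinal no neighbours overlapped, and the order ran Sst (28.8 ± 3.41), Penk (23.6 ± 0.256), Calca (17.5 ± 0.862), Npy (15.9 ± 0.527), Gal (10.2 ± 0.714), Tac1 (5.73 ± 0.495), Cck (4.53 ± 0.417), Pdyn (3.59 ± 0.456), Nts (2.78 ± 0.340) and Grp (0.409 ± 0.179).

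As a share of the summed FPKM of the 10 genes, Sst made up 34.4% ± 1.08 of the pool in Sham, 22.8% ± 1.83 in C_Spinal and 25.4% ± 2.29 in T_Spinal. Every Sham library exceeded every injured library. Npy went the other way, with 7.47% ± 0.990, 15.6% ± 1.33 and 14.1% ± 0.415, and so did Calca, with 7.61% ± 0.399, 13.0% ± 1.503 and 15.5% ± 1.02. For both genes the shares of all 6 injured libraries exceeded those of all 3 Sham libraries. Cck held 6.82% ± 0.119 in Sham, 6.42% ± 1.38 in C_Spinal and 4.01% ± 0.265 in T_Spinal, where all 3 libraries were below the others. The Penk share was 21.7% ± 1.09, 18.1% ± 2.78 and 20.9% ± 0.501, with T_Spinal overlapping Sham. Shares of a fixed sum are not independent of each other.

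**Figure D3:**
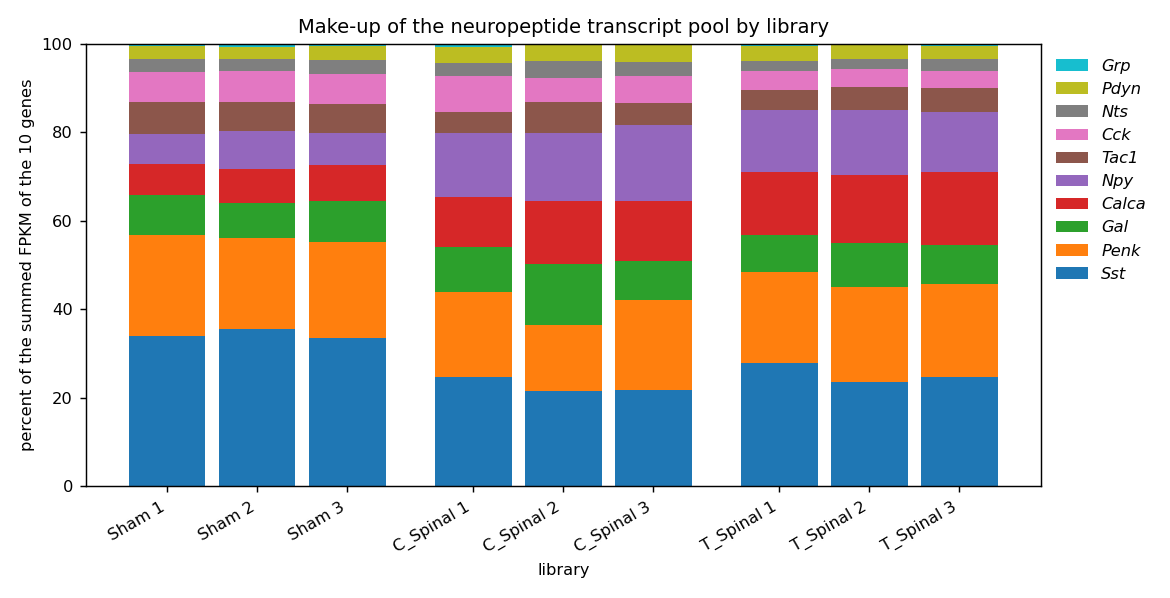
Stacked bars of the percent of the summed FPKM of the 10 precursor genes (vertical axis) held by each gene in each of the 9 libraries. Sst takes 34.4% on average in Sham and 22.8% in C_Spinal, while Npy and Calca widen from 7.47% and 7.61% to 15.6% and 13.0%.

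Transcripts of neurons in general fell with the precursors. All 15 genes of a list of markers shared by neurons of all kinds were lower in C_Spinal (median log2 fold change -3.29), and all 15 were higher in T_Spinal than in C_Spinal (median 0.67). Over all tested genes 37.4% were lower in the first comparison and 20.7% higher in the second. Snap25, of synaptic vesicle fusion, had -4.25 and 1.01. Slc17a6, the vesicular glutamate transporter of excitatory neurons, had -4.30 and 1.40, and Gad1, which makes GABA, had -3.22 and 1.03. Slc6a5, the glycine transporter of inhibitory neurons, had -5.61 and 1.99. The geometric mean of the 15 neuronal genes was 134.5 ± 6.47 FPKM in Sham, 16.9 ± 0.394 in C_Spinal (12.6% of Sham) and 28.1 ± 0.379 in T_Spinal (20.9%). Each of the 9 tested precursors kept a larger share of its Sham mean than that in both injured groups, from 15.5% for Sst to 48.6% for Npy in C_Spinal.

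Each precursor was divided by this neuronal mean in the same library. Relative to it all 9 were higher in C_Spinal than in Sham without overlap, but so were 95.5% of all tested genes, with 1.51% lower. The ratio of Npy was 0.150, 0.187 and 0.153 in Sham and 0.623, 0.619 and 0.658 in C_Spinal, 3.89-fold higher. That of Calca was 0.163, 0.165 and 0.171 against 0.491, 0.576 and 0.523, 3.18-fold higher, and that of Sst 0.768, 0.780 and 0.715 against 1.07, 0.869 and 0.847, 1.23-fold higher. An exact two-sided permutation test of 3 against 3 libraries cannot go below p = 0.10, which is the value for each of these (0.123 adjusted over 27 ratios compared).

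Between the injured groups the ratio was lower in T_Spinal without overlap for 4 precursors (Pdyn, Npy, Nts and Cck), overlapped for 4 (Penk, Tac1, Sst and Gal) and was higher for Calca. Of all tested genes 85% were lower and 1.52% higher by the same rule. Against Sham, T_Spinal ratios were higher for 8 precursors and overlapped for Cck, beside 94.6% of all genes higher and 1.6% lower. Cck had the largest fall in this ratio, from 0.343, 0.212 and 0.235 to 0.178, 0.157 and 0.149, or 1.60-fold lower. Calca rose from 0.491, 0.576 and 0.523 to 0.596, 0.620 and 0.648, or 1.17-fold (exact p = 0.10). The choice of neuronal list set several of these directions. With the sum of the list the ratios of Pdyn, Tac1 and Npy were higher in T_Spinal (log2 differences 0.0163, 0.0870 and 0.0857). With the geometric mean of 8 inhibitory neuron genes those of Penk, Sst and Calca were lower (-0.312, -0.373 and -0.284). Nts, Cck and Gal were lower with all 3 lists.

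**Figure D4:**
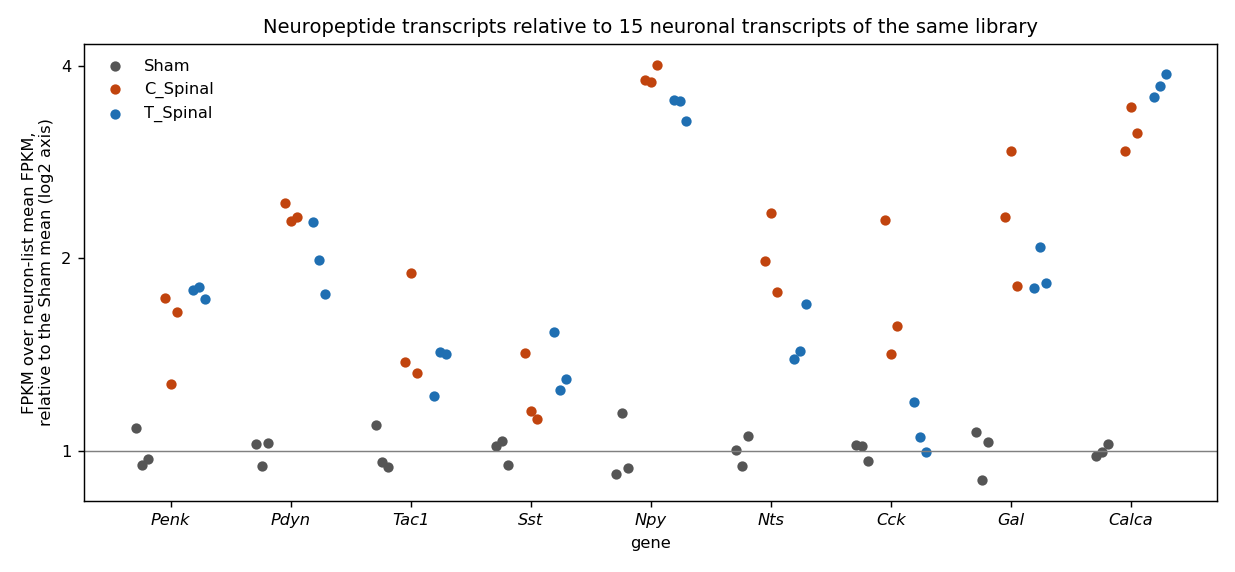
FPKM of each tested precursor divided by the geometric mean FPKM of 15 neuronal genes of the same library, relative to the Sham mean (log2 vertical axis); points are libraries. All injured points of Npy and Calca lie above 2, and T_Spinal points of Cck lie near the Sham points at 1.

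Levels of other cell types moved with the injury as well, and their part in the precursors' differences was not tested. For the counts below, 38.1% of all tested genes were higher and 37.4% lower in C_Spinal against Sham (27.6% and 26.5% with no minimum). In T_Spinal against C_Spinal 20.7% were higher and 17.9% lower (13% and 10.7% with no minimum). All 6 tested motor neuron markers were lower in C_Spinal (summed FPKM of the list 143.1 to 152.3 in Sham, 26.4 to 30.5 in C_Spinal, 34.3 to 37.2 in T_Spinal), as were all 8 inhibitory neuron markers (230.1 to 246.1, 57.0 to 59.0, 74.3 to 77.1), 2 of which passed the expression minimum only through Sham. The 5 tested excitatory dorsal horn markers were lower too (49.8 to 52.6, 6.30 to 7.05, 9.96 to 10.7), and 2 of these, Lbx1 and Lmx1b, also passed only through Sham. With no minimum all 8 inhibitory markers and 7 of 8 excitatory markers were lower. All 8 microglia and macrophage markers were higher (122.6 to 128.6, 2705 to 2760, 2489 to 2525), and Schwann cell markers summed to 827.1 to 856.4, 1257 to 1272 and 466.1 to 477.8. All 7 oligodendrocyte markers were lower in C_Spinal (27306 to 27541, 8392 to 8476, 10145 to 10347). Astrocyte markers summed to 4301 to 4549, 5501 to 5595 and 5754 to 6031, endothelial markers (Cldn5 at 0 in every group) to 26.5 to 27.3, 55.9 to 59.9 and 45.8 to 46.6, and fibroblast and meningeal markers to 94.3 to 97.3, 1294 to 1314 and 613.6 to 622.7. Single markers did not all follow these sums. That of microglia and macrophages was mostly Lyz2 (39.9, 1832 and 1471 FPKM on average) and Cd68 (2.22, 625.1 and 509.2). In T_Spinal against C_Spinal 5 of these 8 markers were higher and 1 was lower (median log2 fold change 0.71). Csf1r averaged 104.9 FPKM in C_Spinal and 236.1 in T_Spinal, and Cx3cr1 34.2 and 97.8. In C_Spinal against Sham 2 of 7 astrocyte markers were higher and 3 lower. Gfap averaged 1425 FPKM in Sham and 2880 in C_Spinal, and Slc1a2 150.3 and 40.4. The astrocyte marker Aqp4 was unstable between libraries of a group, at 72.4, 82.9 and 413.9 FPKM in Sham and 77.7, 74.0 and 382.8 in T_Spinal. Slc1a3, of the same list, read 41.0, 16.4 and 15.7 in C_Spinal and 26.4, 72.1 and 30.7 in T_Spinal. Of 4 tested endothelial markers 2 were higher and 1 lower, and of 7 Schwann cell markers 5 were higher and 2 lower. Sensory ganglion neurons, the other known source of Calca and Tac1, had 8 matched markers, of which 2 reached the expression minimum. Their sum of 6.20 to 6.67, 40.1 to 45.1 and 35.2 to 38.3 was mostly Fxyd2, a sodium pump subunit (3.30, 39.4 and 34.5 FPKM on average). The defining sodium channels Scn10a and Scn11a were at or near 0, with group means of 0.0774, 0.0136 and 0.00541 FPKM for Scn10a and no counts for Scn11a in C_Spinal. Avil, the other marker over the minimum, averaged 0.855, 1.85 and 1.06 FPKM. With no minimum 2 of the 8 markers were higher in C_Spinal than in Sham, 1 was lower and 5 were not called. In T_Spinal against C_Spinal 1 was higher (P2rx3, from 0.388 to 0.648 FPKM), 1 was lower and 6 were not called.

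Most of the measured receptors for these peptides were lower after injury. Of 26 receptor genes matched, 10 reached the expression minimum, of which 8 fell and 2 rose in C_Spinal. The median was -2.17, against 0.02 over all tested genes. Galr1, Sstr1, Sstr2, Tacr1 and Tacr3 passed the minimum only through their Sham level, so their falls were favoured by the filter. With no minimum 17 of 26 receptors fell and 3 rose, against 26.5% and 27.6% of 22666 genes. Tacr1, the substance P receptor, had 267, 292 and 191 counts in Sham, 0, 5 and 20 in C_Spinal and 40, 50 and 89 in T_Spinal, log2 fold changes of -4.96 (SE 0.747, adjusted p = 1.41e-04) and 2.71 (SE 0.723, adjusted p = 0.0144). Sstr2, a somatostatin receptor, had -3.56 and 1.37, and Galr1, a galanin receptor, -3.74 and 1.18, all called in both comparisons. Npy1r, a neuropeptide Y receptor, fell by 1.39 and had 0.14 between the injured groups (adjusted p = 0.678). Ntsr2, a neurotensin receptor of astrocytes, stood at 85.4 FPKM in Sham and fell by 0.47, with 0.12 between the injured groups (adjusted p = 0.112, called higher in 3 of 19 settings). Both parts of the CGRP receptor rose in C_Spinal, Calcrl by 0.92 (adjusted p = 4.92e-04) and its partner Ramp1 by 0.52 (adjusted p = 0.00178). With the decoction Ramp1 fell by 0.46 (adjusted p = 0.00871), and Calcrl had -0.29 (adjusted p = 0.197, called lower in 2 of 19 settings). Of the 10 receptors over the minimum 6 rose and 1 fell in T_Spinal against C_Spinal, beside 20.7% and 17.9% of all tested genes, and 5 of the 10 had passed only through Sham. With no minimum 7 of 26 rose, 2 fell (Ramp1 and Sstr3) and 17 were not called, beside 13% and 10.7% of genes. Sstr3, a somatostatin receptor named after its value was seen, had -0.77 in that fit (adjusted p = 0.0483).

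Opioid receptors and 2 other cognate receptors were below the minimum. Oprd1, an enkephalin receptor, had 42, 96 and 58 counts in Sham, none in C_Spinal and 16, 27 and 29 in T_Spinal. Taking 3 counts in each library as the limit that a count of 0 allows, for counting error alone, it was at least 20.6-fold higher in Sham than in C_Spinal and at least 7.33-fold higher in T_Spinal. Oprk1, the dynorphin receptor, had 269, 235 and 267 counts in Sham, 153, 115 and 150 in C_Spinal and 112, 91 and 84 in T_Spinal. With no minimum it fell by 0.93 after injury (adjusted p = 0.00493) and had -0.66 between the injured groups (adjusted p = 0.0643, or 0.0485 with filterByExpr, where it was called lower). Oprm1, another opioid receptor, had 59, 114 and 71 counts in Sham, 15, 0 and 8 in C_Spinal and 16, 28 and 25 in T_Spinal. In edgeR's fit with no minimum Oprm1 fell by 3.42 after injury (adjusted p = 0.00528). Between the injured groups it had 1.42 and was not called (adjusted p = 0.275). Cckbr fell by 3.37 (adjusted p = 1.28e-05) and Grpr had -2.68 (SE 1.27, adjusted p = 0.101) in the same fit.

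Of 18 genes for precursor processing and dense-core granules, all tested, 14 fell and 3 rose in C_Spinal (median -1.03), beside 37.4% of all tested genes lower and 38.1% higher. Cadps2, one of the falls, passed the minimum only through Sham. Chga and Chgb, granins that fill the vesicles, had log2 fold changes of -3.73 and -3.64, and Pcsk2, a convertase that cuts neuropeptide precursors, fell by 3.51 (SE 0.133, adjusted p = 2.40e-09). Its partner Pcsk1 had -0.27 (adjusted p = 0.0651). The trimming enzyme Cpe fell by 0.45 and the amidating enzyme Pam by 0.19, a call that 3 of 18 alternatives lost (total-count scaling and both limma fits, adjusted p up to 0.149). Cpe still stood at 200.1 FPKM in C_Spinal against 251.3 in Sham. The largest rise was Ctsl, a lysosomal protease that also cuts proenkephalin, at 1.63 (SE 0.0352). With the decoction 11 of the 18 rose and 2 fell (median 0.32), beside 20.7% and 17.9% of all tested genes. Among them Chgb rose by 0.99 (adjusted p = 1.61e-06) and Pcsk2 by 0.76 (adjusted p = 9.34e-04), while Pam fell by 0.22 and Ctsl by 0.17. Cpe rose by 0.10 (adjusted p = 0.0471), a call lost in 10 of 18 alternatives. Pcsk1 had 0.32 (adjusted p = 0.0610) and was called higher in 6 of 18 alternatives (adjusted p down to 0.0264).

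Other neuropeptide genes did not share 1 direction. Of 29 matched, 15 were tested, and 8 fell and 7 rose in C_Spinal, beside 37.4% and 38.1% of all tested genes. Nmu, one of the falls, passed the minimum only through Sham. Tac4 and Ucn, among the rises, averaged 0.158 and 0.106 FPKM in Sham and passed only through the injured groups, so their rises were favoured by the filter. With no minimum 10 of 27 fell and 6 rose, beside 26.5% and 27.6% of genes. Tac3, the neurokinin B precursor, fell most at -3.05 (SE 0.175, adjusted p = 6.68e-08), from 24.0, 26.1 and 25.1 FPKM to 2.77, 4.18 and 2.90, and Tac4 rose most at 3.99 (SE 0.715, adjusted p = 4.96e-04). Tac4 had 19, 0 and 16 counts in Sham. In T_Spinal against C_Spinal 4 of the 15 rose and 4 fell, beside 20.7% and 17.9% of all tested genes. Trh, the thyrotropin-releasing hormone precursor, rose most at 1.36 (SE 0.144, adjusted p = 5.97e-05), with 4.14, 4.06 and 2.82 FPKM in Sham, 5.15, 5.58 and 5.83 in C_Spinal and 15.4, 14.6 and 13.7 in T_Spinal. Pnoc, the nociceptin precursor, fell most at -1.19 (SE 0.0689, adjusted p = 1.22e-06), with 8.54, 8.23 and 9.26 in Sham, 14.3, 15.7 and 15.01 in C_Spinal and 6.98, 6.61 and 6.68 in T_Spinal. Pnoc, an opioid-related precursor, was highest in C_Spinal, where Penk and Pdyn were lowest.

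Of 13 tested peptidases that degrade neuropeptides, 6 fell and 5 rose after injury (median -0.23), beside 37.4% and 38.1% of all tested genes. Dpp4, at 0.859 FPKM in Sham and 2.76 in C_Spinal on average, passed the minimum only through the injured groups. With no minimum 5 of 14 fell and 5 rose, beside 26.5% and 27.6% of genes. Anpep, an aminopeptidase also carried by myeloid cells, rose most at 4.93 (SE 0.102, adjusted p = 3.12e-11) and Cpm, a carboxypeptidase, fell most at -1.29 (SE 0.0450). With the decoction 3 rose and 4 fell, beside 20.7% and 17.9% of all tested genes. Mme (neprilysin), which cleaves enkephalin and substance P, fell most at -1.43 (SE 0.231, adjusted p = 9.19e-04), and Cpm rose most at 0.36 (SE 0.0445).

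**Figure D5:**
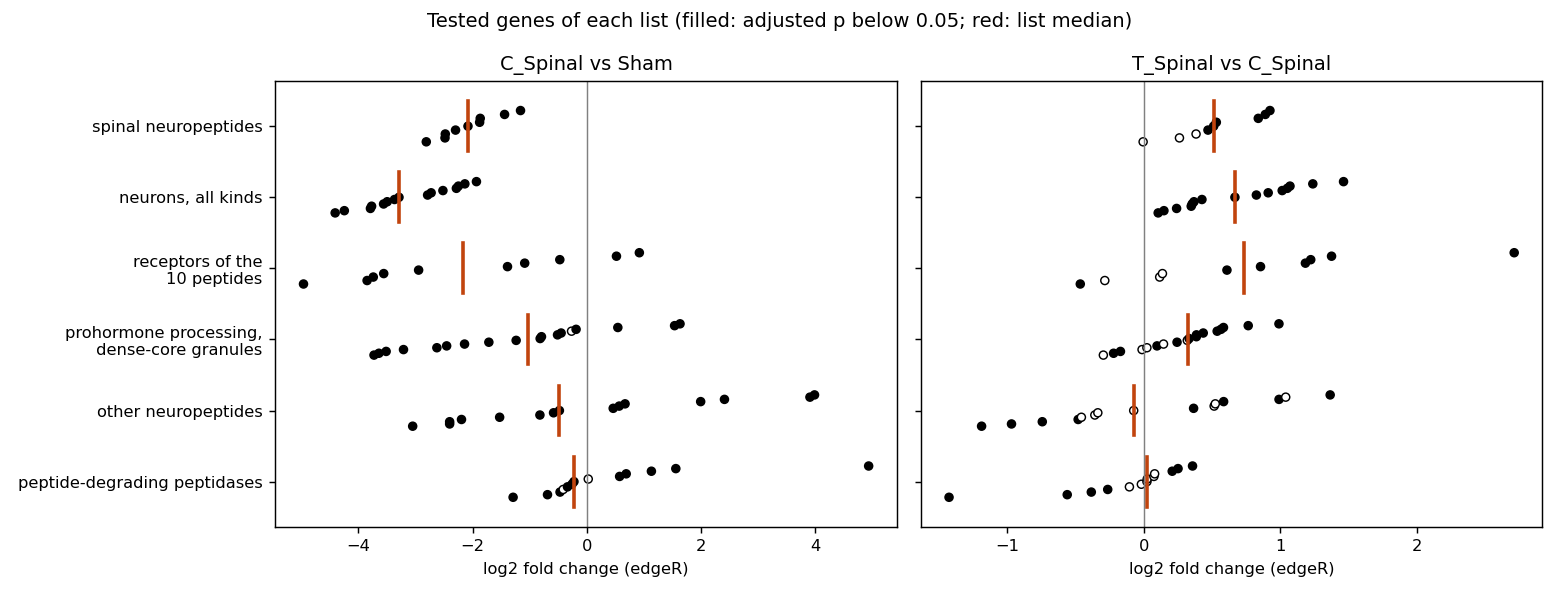
Log2 fold change (horizontal axes) of the tested genes of each list in C_Spinal against Sham and T_Spinal against C_Spinal; filled points had an adjusted p below 0.05 and red lines are list medians. The precursors lie at a median of -2.08 on the left and 0.51 on the right, beside -3.29 and 0.67 for neurons of all kinds.

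The genes with the profiles most like each precursor were those at the smallest Euclidean distance over the 9 libraries between centred log2(FPKM + 1) values, an order given as a description. For Sst they were Camkv, Pnma8a and Gad1 (distances 0.332 to 0.354). For Penk they were Akap6, Clstn2 and Kcnj10 (0.283 to 0.321) and for Tac1 Jakmip1, Gria3 and Nipal4 (0.207 to 0.309). For Pdyn, Nacc2 (0.189) and Klhl11 (0.194) were among the nearest. Npy was closest to Tulp4 (0.231), Pcsk6 and Myrf, a regulator of myelin genes. Calca was closest to Tcp11l1 (0.233), Clmn and Fam81a. For Nts the nearest were L3mbtl1, Armh4 and Dner, for Gal Dner, Grin3a and Rtbdn, and for Cck Syndig1l, Clvs2 and Mcf2l (0.328 to 0.361).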

How the data were processed

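Stranded poly(A) libraries of rat spinal cord were sequenced in 3 groups of 3, per the labels. The submitters' processing notes name HISAT and StringTie without versions; the sources used here give no build, annotation release or strand setting. The authors deposited whole-number counts per gene and library, and FPKM in which a count of 0 is listed at a small constant. Depth was 57.0 to 69.8 M counts. Genes averaging 1 FPKM or more (14791 genes, 99.7% of counts) entered edgeR's quasi-likelihood test (edgeR 4.0.16, R 4.3.3) after TMM scaling, all 9 libraries in 1 fit, with Benjamini-Hochberg adjustment over all genes tested and calls at 0.05. SE is the log2 fold change divided by the square root of F; intervals are 95%. Alternatives used limma 3.58.1, DESeq2 1.42.0, other scalings and filters, a replicate block and leaving out each library. The model was checked on simulated counts. The exact permutation test used SciPy 1.17.1. FPKM is not rescaled by TMM, so a percent of the Sham mean in FPKM runs above the fitted fold change.

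The 10 genes and the gene lists were chosen with earlier results of these data known. Named beside them were a cognate receptor of each precursor, 4 processing enzymes, 4 neuronal genes, the called gene with the largest rise and fall of each pathway list in the first 2 comparisons, and the 3 nearest profiles, of which 1 is not reported here. Other genes (Calcb, Sstr1, Sstr3, Tacr3, Oprm1, Lbx1, Lmx1b, Cadps2, Nmu, Chga, Avil, P2rx3, Gfap, Slc1a2 among them) were named after their values were seen. So were Ucn, Dpp4, Lyz2, Cd68, Csf1r, Cx3cr1, Aqp4 and Slc1a3. Replicate libraries differed beyond counting noise on average, at a mean chi-square per gene of 20.9 to 31.0. A few genes with unstable or very high counts can raise such a mean, so it does not describe every gene.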

Additional observations from a re-analysis of the deposited data

How the results depend on the processing

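All 9 tested precursors stayed lower in both injured groups than in Sham, and past the threshold, under all 18 alternatives. In T_Spinal against C_Spinal 5 to 7 were called higher and none lower. Cck, not called, stood at 0.0192 with DESeq2's size factors in edgeR, 0.0282 with total-count scaling, 0.000208 with filterByExpr, 0.0195 with DESeq2, 0.0407 and 0.0524 with limma on log2(FPKM + 1) and log2(FPKM + 0.1), 0.00879 with the replicate block, and -0.124 to 0.217 without single libraries, against -0.01. Npy1r, not called, ran from -0.0416 to 0.382 without single libraries. With TMM-scaled CPM in place of FPKM, the percent of Sham in T_Spinal was 33.2 for Penk, 25.5 for Tac1, 64.6 for Npy, 20.2 for Cck, 35.7 for Gal and 69.8 for Calca, and in C_Spinal 27.2 for Pdyn and 44.7 for Npy. For the ratio to neuronal genes between the injured groups, the sum of the list gave 0.0163 for Pdyn, 0.0870 for Tac1 and 0.0857 for Npy, and the inhibitory list gave -0.312 for Penk, -0.373 for Sst and -0.284 for Calca; leaving out single libraries moved the Tac1 ratio to between -0.259 and 0.000578. The cause of these shifts was not tested. Total-count scaling moved the median of all genes to 0.138 in C_Spinal against Sham and 0.136 in T_Spinal against Sham. With no expression minimum 17 and with filterByExpr 16 receptors were lower in C_Spinal than in Sham, against 8, since more receptors were tested. In 10 alternatives 2 peptidases rather than 4 were lower with the decoction. Same-numbered libraries did not deviate together (correlations -0.0750 to 0.0354), so the numbers give no pairing; with the replicate block 2827 genes were higher and 2408 lower in T_Spinal against C_Spinal, against 3057 and 2650, and the same 6 precursors were called. Depth limits Grp, Oprd1, Tacr1 and Grpr, which had 0 to 89 counts in the injured libraries.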
